A study of Homo sapiens with 36 samples.

Results

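Occupancy by the transcription factor GATA2 was examined at 33 genes of the megakaryocyte and platelet lineage, out of 19974 protein-coding genes, in HUDEP-2 cells, an immortalised human erythroid progenitor line. The 33 genes are a named list of platelet receptors, granule and secretory proteins, agonist pathway genes, cytoskeletal proteins and regulators. The list was drawn up with earlier results of these data known. A library counted as having a peak at a gene when the summit of a peak lay in the gene body or within 10 kb on either side on hg38. By that criterion 16 of the 33 genes (48.5%) had a peak in at least 1 library, against 8409 of the 19974 protein-coding genes (42.1%).

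GATA2 is a zinc finger factor of blood stem and progenitor cells that binds DNA at GATA words and is replaced by GATA1 at many sites as erythroid cells and megakaryocytes mature. Megakaryocytes and erythroid cells arise from a shared progenitor, and megakaryocytes shed platelets, which adhere through the glycoprotein Ib-IX-V complex, aggregate through the integrin made of ITGA2B and ITGB3, and release the contents of their granules. Occupancy at a gene in an erythroid line is a measure of where the factor sits and not of whether the gene is expressed there.

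Chromatin was profiled by CUT&Tag, in which a transposase bound to an antibody cuts the DNA around the protein, and the fragments it frees are sequenced. In GATA2-low cells (genotype label GATA2+/-) a lentivirus delivered HA-tagged GATA2 carrying the zinc finger mutation T354M (HA-T354M), HA-tagged GATA2 (HA-GATA2) or an empty vector, and wild-type cells received the empty vector. Infected cells were sorted for GFP, and the same line and culture medium underlay every group. All 4 of these cell populations were profiled with anti-GATA2 and the 3 GATA2-low ones also with anti-HA, so that 7 groups of 4 libraries had a peak list each; 8 IgG libraries had none used here. The anti-GATA2 antibody can bind the introduced protein and what remains of the cells' own GATA2, whereas anti-HA binds only the introduced protein. The labels do not say whether the GATA2-low cells are 1 clone or whether replicates are separate cultures, so the spread between libraries, and the p-values that rest on it, may be technical. For replicate 1 of the GATA2-low empty vector with anti-GATA2, the genotype label (wild-type) and the title (GATA2-low) conflict; it was grouped by title, and counts without it are given where it enters.

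The lists differed in length and depth. Peaks per list numbered 2779 to 6311 for HA-T354M, 7064 to 12171 for HA-GATA2, 1823 to 3648 for the GATA2-low empty vector and 6555 to 9121 for the wild-type empty vector with anti-GATA2. With anti-HA they numbered 426 to 744 for HA-T354M, 1912 to 6065 for HA-GATA2 and 1 to 6 for the empty vector, which carries no tag. Read totals are unknown. A relative depth recovered from the deposited peak statistics averaged 0.479 fragments per window for HA-T354M, 0.431 for HA-GATA2, 0.174 for the GATA2-low empty vector and 0.265 for the wild-type empty vector with anti-GATA2, and 0.374 and 0.376 for HA-T354M and HA-GATA2 with anti-HA. Of 12 erythroid marker genes, 5.5 ± 0.577, 9 ± 0.816, 5.25 ± 1.26 and 6.75 ± 0.5 had an anti-GATA2 peak in the HA-T354M, HA-GATA2, GATA2-low empty-vector and wild-type libraries (SD, n = 4 each).

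Start regions were available from RefSeq (GRCh38.p14) as 250 bases before and 50 bases after a listed start, for 24 of the 33 genes and 32 starts. The 3 member starts whose window held a summit, at GP1BB, MYH9 and NBEAL2, are printed below with that of ITGA2B, whose window held none and whose nearest peak lay farther upstream. Each is given 5′ to 3′ on the strand of the gene, with capitals marking the GATA words searched on both strands, which were AGATAA with its close relative AGATAG and, beginning with T instead, TGATAA with its close relative TGATAG.
GP1BB, chr22:19723289-19723588, plus strand: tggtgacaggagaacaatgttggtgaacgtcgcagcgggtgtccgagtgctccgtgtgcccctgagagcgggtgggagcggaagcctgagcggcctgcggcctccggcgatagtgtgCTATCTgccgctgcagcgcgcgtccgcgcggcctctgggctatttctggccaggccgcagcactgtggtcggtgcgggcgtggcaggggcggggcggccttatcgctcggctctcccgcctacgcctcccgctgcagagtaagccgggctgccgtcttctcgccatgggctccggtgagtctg
MYH9, chr22:36387918-36388217, minus strand: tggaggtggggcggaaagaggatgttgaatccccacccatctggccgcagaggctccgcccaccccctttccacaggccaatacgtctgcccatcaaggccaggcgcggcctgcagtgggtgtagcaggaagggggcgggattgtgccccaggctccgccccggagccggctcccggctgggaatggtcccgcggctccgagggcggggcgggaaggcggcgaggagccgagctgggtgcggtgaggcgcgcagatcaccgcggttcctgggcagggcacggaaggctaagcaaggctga
NBEAL2, chr3:46979416-46979715, plus strand: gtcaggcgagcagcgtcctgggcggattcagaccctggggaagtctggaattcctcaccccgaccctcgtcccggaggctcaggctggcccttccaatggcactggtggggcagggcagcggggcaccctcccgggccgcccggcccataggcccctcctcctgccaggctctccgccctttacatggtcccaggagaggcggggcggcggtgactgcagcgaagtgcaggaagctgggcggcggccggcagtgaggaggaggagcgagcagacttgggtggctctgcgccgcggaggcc
ITGA2B, chr17:44389600-44389899, minus strand: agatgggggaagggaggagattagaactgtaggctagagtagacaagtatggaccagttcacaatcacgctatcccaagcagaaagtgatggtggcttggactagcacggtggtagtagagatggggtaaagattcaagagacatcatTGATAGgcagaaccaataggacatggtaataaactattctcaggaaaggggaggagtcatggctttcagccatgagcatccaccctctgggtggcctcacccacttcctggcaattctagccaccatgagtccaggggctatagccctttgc
The GP1BB window held AGATAG on the opposite strand, printed as CTATCT, with its first base at -133 from the start, and the ITGA2B window held TGATAG at -102. The MYH9 and NBEAL2 windows held none of these words. Such a word was present in 12 of the 32 member windows (37.5%), against 20% of 22132 windows of all protein-coding genes. A summit of any library lay in 3 of 32 member windows (9.38%) and in 12.2% of all windows. A word stood in 1 of those 3, and among all genes in 19.5% of the windows with a summit and 20% of those without. The other member windows with a word, each without a summit, belonged to ARHGAP6, CD9, CLEC1B, GP5, GP6, P2RY12, PPBP, RAB27B and SELP. The letters alone do not show a bound site.

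Groups with longer lists had a peak at more member genes. With anti-GATA2, replicates 1 to 4 had a peak at 5, 2, 7 and 8 member genes for HA-T354M, at 8, 11, 13 and 13 for HA-GATA2, at 3, 3, 5 and 7 for the GATA2-low empty vector, and at 10, 8, 11 and 11 for the wild-type empty vector. All HA-GATA2 libraries thus lay above all GATA2-low empty-vector libraries, and these lay below all wild-type libraries, whereas the HA-T354M libraries overlapped the GATA2-low empty-vector ones and reached the lowest HA-GATA2 and wild-type value, 8. As a share, HA-T354M libraries had a peak at 16.7% ± 8 of the members and 16.1% ± 4.83 of all genes, and HA-GATA2 libraries at 34.1% ± 7.18 and 26.4% ± 4.32. The GATA2-low empty-vector libraries had 13.6% ± 5.8 of the members and 8.57% ± 2.71 of all genes, and the wild-type libraries 30.3% ± 4.29 and 25.4% ± 3.34 (SD, n = 4 each). The share of members was thus higher or lower in the same groups as the share of all genes. With anti-HA, replicates 1 to 4 had a peak at 0, 0, 1 and 2 member genes for HA-T354M and at 6, 6, 7 and 1 for HA-GATA2, and the empty vector had none in any library. These averaged 2.27% of the members and 2.35% of all genes for HA-T354M, and 15.2% and 12.8% for HA-GATA2. Cut to the 1823 strongest peaks of each list, the anti-GATA2 groups had 2.25 ± 0.5, 2 ± 0, 3.25 ± 1.26 and 2.5 ± 1 member genes in the order HA-T354M, HA-GATA2, GATA2-low empty vector and wild-type. Those cut lists had a peak at 6.82%, 6.06%, 9.85% and 7.58% of the members, beside 6.03%, 5.93%, 6.51% and 6.43% of all genes. With depth equalised they had 4 ± 1.83, 10.5 ± 2.52, 4.5 ± 1.91 and 8.25 ± 2.36. Those were 12.1%, 31.8%, 13.6% and 25% of the members, beside 12%, 22.8%, 8.33% and 20% of all genes.

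**Figure D1:**
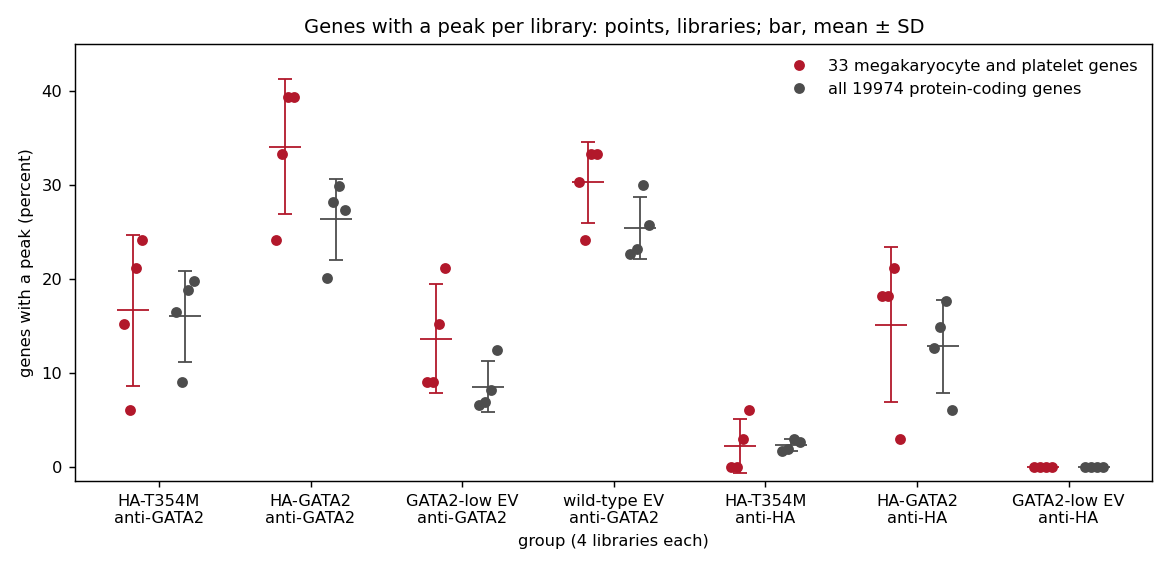
Percent of the 33 megakaryocyte and platelet genes (red) and of all 19974 protein-coding genes (grey) with a peak in each library, by group; points are libraries and the bar is the mean ± SD of 4. Both shares are highest with HA-GATA2 and the wild-type empty vector, and in HA-T354M anti-GATA2 libraries they average 16.7% and 16.1%.

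Genes with a peak in all 4 libraries of a group numbered 2, 8, 1 and 5 of the 33 members for HA-T354M, HA-GATA2, the GATA2-low empty vector and the wild-type empty vector with anti-GATA2. Among all genes the same criterion held for 8.75%, 19.3%, 5.01% and 17.6%. For contrast, 32 red cell membrane and haem genes had 19, 26, 18 and 23 such genes, and 26 neutrophil and monocyte genes had 2, 4, 2 and 3. A list of 40 further megakaryocyte genes had 8, 14, 7 and 11, and 7 of these 40 had a peak in all 16 anti-GATA2 libraries, against 1 of the 33 members. Those 7 were the transcription factor genes RUNX1, GFI1B, NFE2 and GATA1, the tropomyosin gene TPM4, the adaptor gene LCP2 and the lipoxygenase gene ALOX12, several of which erythroid cells also express, and they are named here after their values were seen. By the same criterion the red cell list had 18 of 32 genes and the neutrophil and monocyte list 2 of 26. These differences between lists were not tested.

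Among the members, 4 of 4 cytoskeletal genes had a peak in at least 1 library, beside 42.1% of all protein-coding genes. Of these 4, ARHGAP6 spans 528 kb and FLNA had only sites from a single library. MYH9, the heavy chain of non-muscle myosin IIA and a gene mutated in inherited large-platelet disorders, was the only member with a peak in all 16 anti-GATA2 libraries. Its site lay inside the gene at chr22:36368258-36369385, 19.3 kb from the 5′ end of the gene. The position of this peak in its own list, as a percentile by -log10 q with 100 for the strongest, was 97.6, 94, 94.9 and 96.7 in HA-T354M replicates 1 to 4 and 98.4, 99.5, 99.6 and 99.5 in HA-GATA2 replicates. It was 85.4, 88.1, 84.7 and 96.9 in GATA2-low empty-vector replicates and 94.9, 95.7, 96.9 and 97.3 in wild-type replicates. So the site ranked in the upper part of every anti-GATA2 list, the lowest value being 84.7. Folds are the authors' values and percentiles are ranks computed here within a list. Since lists differ in length and background, neither is compared between groups. Its deposited fold enrichment over local background was 28.3 to 45 for HA-T354M, 58.9 to 101 for HA-GATA2, 21.3 to 43.7 for the GATA2-low empty vector and 45.7 to 69.6 for wild-type. With anti-HA the same site had a peak in 1 of 4 HA-T354M libraries (percentile 36.1, fold 7.12) and in 4 of 4 HA-GATA2 libraries (percentiles 94.3 to 97.8, fold 21.8 to 33.4). A weaker MYH9 site at chr22:36388064-36388307 covered the start region printed above. It had a peak in 2 HA-T354M, 3 HA-GATA2, 0 GATA2-low empty-vector and 4 wild-type libraries, with folds of 4.27 to 8.15, and none with anti-HA. The GATA2-low empty-vector lists thus lacked this site, and all of them held the site inside the gene. That group also had the lowest estimated depth of the anti-GATA2 groups, 0.174 on average, and the part of depth was not tested. Further MYH9 sites had a peak in 2 HA-GATA2 libraries, 17.8 kb from the 5′ end, and in 2 wild-type libraries, 58.6 kb from it.

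TUBB1, the beta-tubulin of platelet microtubules, had 1 recurrent site inside the gene at chr20:59020867-59021482, 4.76 kb from the 5′ end. The site had a peak in 2 HA-T354M, 4 HA-GATA2, 3 GATA2-low empty-vector and 4 wild-type anti-GATA2 libraries and in none of the anti-HA libraries. Within their own lists these peaks stood at percentiles 31.8 to 46.3, 35.8 to 67.8, 14.9 to 63.2 and 46.6 to 76.9 in those groups. FLNA, the actin cross-linker filamin A, had a peak in 1 HA-T354M and 1 wild-type anti-GATA2 library, at different sites, and its upstream site lay 414 bp from EMD.

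ARHGAP6, a GTPase-activating protein, had a peak in 3 HA-T354M, 4 HA-GATA2, 0 GATA2-low empty-vector and 3 wild-type anti-GATA2 libraries and in 3 HA-GATA2 anti-HA libraries. The 3 HA-T354M libraries each had a different site inside the gene, with percentiles of 2.13 to 10.6, among the weakest of their lists. The site at chrX:11464556-11465364, 201 kb from the 5′ end, carried the HA-GATA2 and wild-type peaks, with percentiles of 7.72 to 58.8 in 4 HA-GATA2 libraries and 0.206 to 14.3 in 3 wild-type libraries. A second site, at chrX:11517130-11517627, had a peak in 1 HA-T354M, 4 HA-GATA2 and 0 wild-type libraries.

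**Figure D2:**
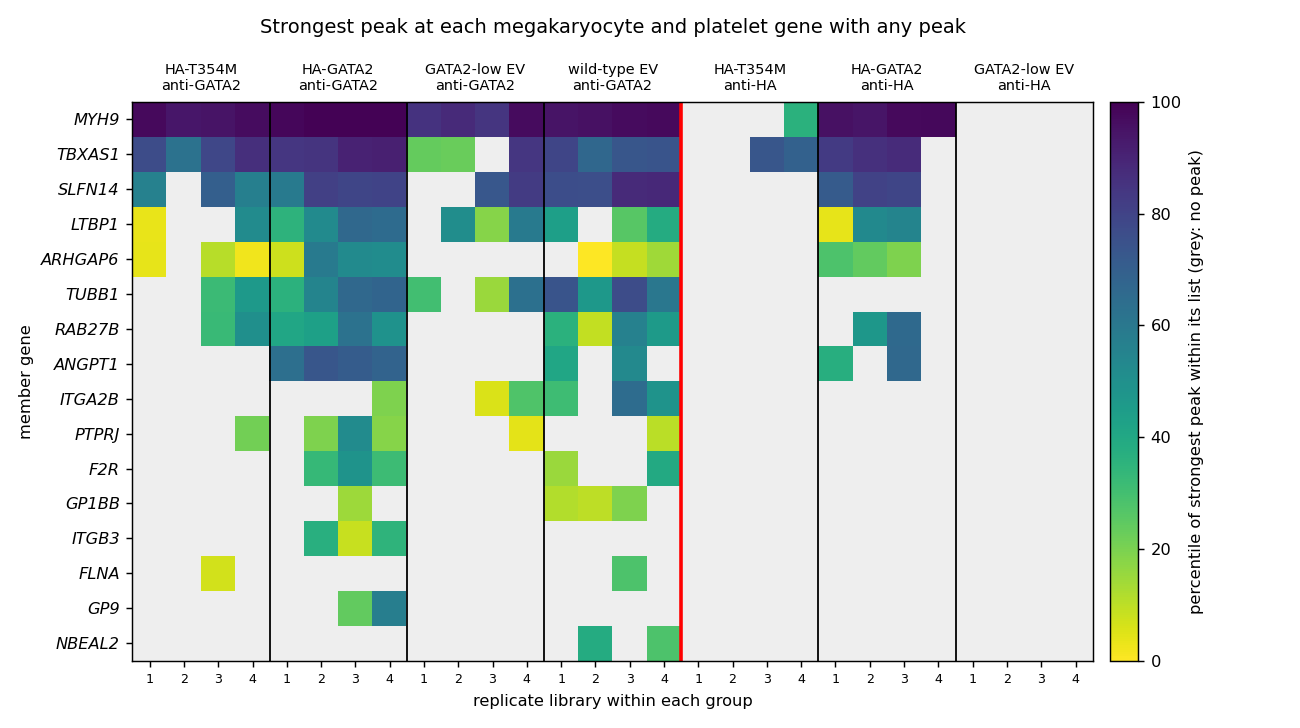
Percentile of the strongest peak of each of the 16 member genes with any peak (rows) in each of 28 libraries (columns, by group and replicate), where 100 is the strongest peak of that library's list and grey means no peak. MYH9 is filled in all 16 anti-GATA2 libraries; the GATA2-low empty-vector anti-HA libraries have no member peak.

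Of the 5 members in agonist signalling, TBXAS1 and F2R had a peak. TBXAS1, thromboxane synthase, had 3 sites inside the gene, 124, 138 and 153 kb from its 5′ end. The first of them, at chr7:139901791-139902476, had a peak in 4 HA-T354M, 4 HA-GATA2, 2 GATA2-low empty-vector and 4 wild-type anti-GATA2 libraries. Its fold was 12.2 to 27.3, 27.9 to 40.7, 9.14 to 12.7 and 12.9 to 19.5 in those groups. This was the member site where the introduced mutant was seen most often with anti-HA, in 2 of 4 HA-T354M libraries (fold 13.3 to 14) beside 3 of 4 HA-GATA2 libraries (fold 22.2 to 28.4). The site 138 kb into the gene had a peak in 4, 3, 2 and 4 libraries of the same groups, and the site 153 kb into the gene in 3, 4, 0 and 2. Within all 4 HA-T354M lists the site at 124 kb ranked above the one at 138 kb (percentiles 62.4 to 86.6 against 4.34 to 72.5), and it did so within the 3 HA-GATA2 lists that held both (85 to 91.2 against 23.8 to 41.5). Of the GATA2-low empty-vector lists, replicate 4 held both and ranked the site at 124 kb below the one at 138 kb (percentiles 51 and 84), while replicate 1 held only the site at 138 kb and replicate 2 only the one at 124 kb. Within the wild-type lists the site at 124 kb ranked below the one at 138 kb in replicates 1, 2 and 3 (percentiles 63 and 79, 62 and 66.7, 69.4 and 73.3) and above it in replicate 4 (74.1 and 67.5). F2R, the thrombin receptor PAR1, had a peak 3.41 kb outside the gene in 3 HA-GATA2 and 2 wild-type libraries and in no other. The ADP receptor genes P2RY1 and P2RY12 and the thromboxane receptor gene TBXA2R had none.

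Of the 9 genes of granules and secreted proteins, 4 had a peak. RAB27B, a small GTPase of platelet granule secretion, had its anti-GATA2 peaks at different positions in different groups. All 4 HA-GATA2 libraries had peaks at chr18:54806105-54806343 and chr18:54861052-54861574, 88.4 and 144 kb from the 5′ end, where no empty-vector library of either genotype had one. Of the HA-T354M libraries, 2 of 4 had the peak 88.4 kb into the gene. The strongest of these peaks stood at percentiles 41, 43.3, 62.3 and 49 in HA-GATA2 replicates 1 to 4. The 4 wild-type libraries had a peak instead at chr18:54867041-54867407, 149 kb from the 5′ end, with percentiles of 36.1, 9.37, 56 and 45.4 in replicates 1 to 4, and no HA-T354M, HA-GATA2 or GATA2-low empty-vector library had one there. At the level of the gene this reads as 2, 4, 0 and 4 libraries for HA-T354M, HA-GATA2, the GATA2-low empty vector and wild-type, but the peaks behind the HA-GATA2 and wild-type counts were at different sites. With anti-HA, HA-GATA2 had 1, 2 and 1 libraries at the sites 88.4, 144 and 149 kb into the gene, so an anti-HA peak stood at the site of the wild-type cells in 1 library (fold 8.54). Set directly against wild-type, a contrast added after the values were seen, HA-GATA2 had 4 member sites with 4 against 0 libraries and 1 with 0 against 4, the site 149 kb into RAB27B. Across all 16782 sites of that contrast these classes held 7.94% and 1.2%.

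ANGPT1, a ligand of the receptor TIE2 that is stored in platelets, had 4 sites, all of them with HA-GATA2. The strongest, inside the gene at chr8:107287478-107287967 had a peak in 0 HA-T354M, 4 HA-GATA2, 0 GATA2-low empty-vector and 2 wild-type anti-GATA2 libraries and in 2 HA-GATA2 anti-HA libraries. Its percentiles were 63.4, 73.1, 71 and 68.2 in HA-GATA2 replicates 1 to 4 and 40.9 and 53.1 in wild-type replicates 1 and 3. A second site at chr8:107504408-107504803, 6.74 kb beyond the gene, had a peak in the 4 HA-GATA2 libraries alone among the anti-GATA2 groups. LTBP1, a latent TGF-beta binding protein, had a peak 162 kb from its 5′ end in 2 HA-T354M, 4 HA-GATA2, 3 GATA2-low empty-vector and 3 wild-type libraries. Anti-HA found that site in 3 of 4 HA-GATA2 libraries and no HA-T354M library. Another LTBP1 site, 14 kb from the 5′ end, had an anti-GATA2 peak in 3 HA-GATA2 libraries alone. NBEAL2, mutated in grey platelet syndrome, had a peak at its start in 2 wild-type libraries with summits 28 to 33 bp inside the gene, in the window printed above, which also lies inside CCDC12. No peak was found at PF4 and PPBP, the chemokine genes of alpha granules, nor at VWF, SELP or THBS1.

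**Figure D3:**
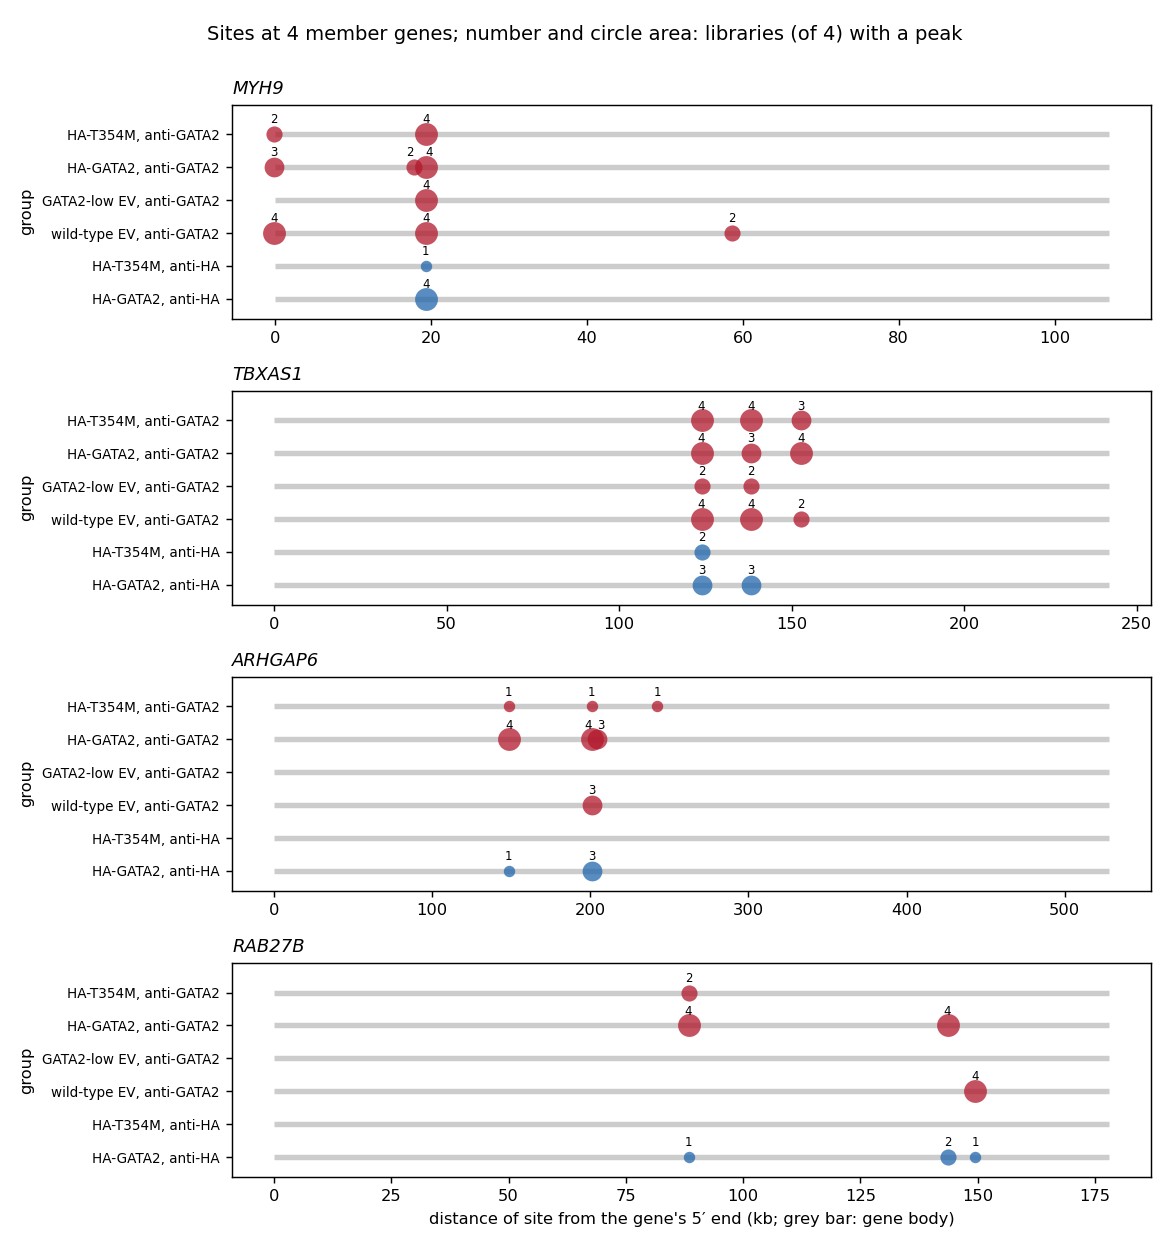
Sites at MYH9, TBXAS1, ARHGAP6 and RAB27B by distance from the 5′ end of the gene (kb), 1 line per group with anti-GATA2 (red) or anti-HA (blue); circle area and number give how many of 4 libraries had a peak, and the grey bar is the gene body. In RAB27B the HA-GATA2 anti-GATA2 peaks, at 88.4 and 144 kb, and the wild-type peaks, at 149 kb, fall at separate sites.

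Of the 12 adhesion receptor and membrane protein genes, 5 had a peak, all of them in few libraries. ITGA2B, the alpha chain of the fibrinogen receptor, had a peak at chr17:44393388-44393842, 3.91 kb upstream of its start and 1722 bp from GPATCH8, in 0 HA-T354M, 1 HA-GATA2, 2 GATA2-low empty-vector and 3 wild-type anti-GATA2 libraries. Its percentiles were 19.5 in the HA-GATA2 library, 5.5 and 27.5 in the empty-vector libraries and 30.9, 64.6 and 48.7 in the wild-type libraries. This was the only member with a peak in fewer HA-GATA2 than GATA2-low empty-vector libraries. ITGB3, its beta chain, had a peak inside the gene in 3 HA-GATA2 libraries, with percentiles of 36.9, 8.41 and 34.8, and in no other library.

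GP1BB, a chain of the von Willebrand factor receptor, had a peak over its start region, at chr22:19723116-19723722, in 0 HA-T354M, 1 HA-GATA2, 0 GATA2-low empty-vector and 3 wild-type anti-GATA2 libraries. The summits lay 68 to 114 bp before the start, inside the window printed above and downstream of its CTATCT. They were weak peaks, with percentiles of 14.6 in the HA-GATA2 library and of 11.7, 10.1 and 19.4 in the wild-type libraries. SEPTIN5 lies 148 bp from this site and the readthrough transcript SEPT5-GP1BB overlaps it, so the peak cannot be assigned to 1 of these genes. GP9, of the same receptor complex, had a peak inside the gene body in 2 HA-GATA2 libraries. It lay 3792 bp upstream of the listed GP9 start. PTPRJ, a receptor phosphatase of platelets, had a peak in 1 HA-T354M, 3 HA-GATA2, 1 GATA2-low empty-vector and 1 wild-type library, at 3 sites inside the gene. The HA-T354M peak lay 80.9 kb from the nearer end of the gene, the empty-vector peak 25.4 kb and the wild-type peak 26.2 kb from it. The 3 HA-GATA2 libraries had peaks at 25.4 and 80.9 kb from that end, so the HA-T354M, empty-vector and wild-type counts come from different sites. GP1BA and GP5 of the same complex as GP1BB, the collagen receptor genes GP6 and ITGA2, and CLEC1B, PEAR1 and CD9 had no peak.

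Of the regulators, SLFN14, a ribosome-associated endoribonuclease mutated in an inherited platelet disorder, had a single site at chr17:35560598-35561279. Its summits lay 87 to 121 bp past the end of the gene with the higher coordinate. The site had a peak in 3 HA-T354M, 4 HA-GATA2, 2 GATA2-low empty-vector and 4 wild-type anti-GATA2 libraries and in 3 HA-GATA2 anti-HA libraries. Percentiles were 56.2, 69.9 and 56.7 in HA-T354M replicates 1, 3 and 4, and 59, 81.1, 79 and 79.7 in HA-GATA2 replicates 1 to 4. They were 73 and 82.7 in GATA2-low empty-vector replicates 3 and 4, and 76.2, 76, 88.2 and 88.3 in wild-type replicates. In every library with the site it therefore ranked above the middle of the list. The lowest values were 56.2 and 56.7 in HA-T354M replicates 1 and 4 and 59 in HA-GATA2 replicate 1. In those libraries the strongest peak per gene had a median percentile of 48.3, 50.6 and 54.8 over all genes with a peak. FLI1 and MEIS1, transcription factors of megakaryocytes, had no peak within 10 kb.

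Lengths differed between the genes with and without peaks. The searched window had a median of 65 kb for the 16 members with a peak and 42.7 kb for the 17 without, and 46.1 kb for all members against 44.2 kb for all protein-coding genes. In all, the 33 windows held 35 sites, of which 26 lay inside the gene, 7 came from a single library and 20 had a peak in at least 3 of 4 HA-GATA2 anti-GATA2 libraries. The corresponding numbers were 5 for HA-T354M, 3 for the GATA2-low empty vector and 11 for wild-type. Lists averaged 10395, 4830, 2430 and 7625 peaks in the order HA-GATA2, HA-T354M, GATA2-low empty vector and wild-type. Peaks at members made up 0.192%, 0.153%, 0.189% and 0.176% of a list on average. The part of list length in these site counts was not tested.

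The first comparison asked where a lower GATA2 level went with loss of occupancy, in cells with the empty vector alone. Of the 14 members with a peak in either group, 0 had a peak in more GATA2-low empty-vector than wild-type libraries, 11 in fewer and 3 in as many. Among all 6955 genes with a peak in either group these numbers were 50, 5873 and 1032. No member stood at 4 of 4 against 0 of 4, beside 0.00501% of all genes. RAB27B, with 0 of 4 against 4 of 4, was the only member whose libraries did not overlap, which is 3.03% of the 33 members against 5.49% of all genes. At single sites 2 of 21 member sites (9.52%), the MYH9 start region and the site 149 kb into RAB27B, stood at 0 against 4, beside 13.7% of all sites. By Fisher's exact test the p of such a gene is 0.0286, the smallest that 4 against 4 libraries allow, so the genes that did not overlap are also those with an unadjusted p under 0.05 in every comparison here. Adjusted over the 6955 genes with a peak in either group the smallest adjusted p by Fisher's exact test was 0.181, so no gene passed. RAB27B passed when adjusted over the 1240 genes whose peaks were in exactly 4 of 8 libraries (Fisher's exact test, adjusted p = 0.0323). In that set 1097 genes passed, which are all the genes that did not overlap. Such genes share the same p, here and in the comparisons below, so they pass or fail together and passing adds nothing to their count. With depth equalised or with lists of equal length no member remained at 0 against 4. The count without the empty-vector replicate of conflicting labels was 1. Without wild-type replicate 1 ARHGAP6 joined RAB27B, and without wild-type replicate 4 GP1BB did. Of the 40 further megakaryocyte genes, PTGS1, the cyclooxygenase gene, stood at 0 of 4 against 4 of 4.

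HA-GATA2 was set against the empty vector in GATA2-low cells to ask where added GATA2 bound. Of the 14 members with an anti-GATA2 peak in either group, 12 had one in more HA-GATA2 libraries, 1 in more empty-vector libraries and 1 in as many. Among all 6640 genes with a peak in either group these numbers were 5498, 86 and 1056. RAB27B, ANGPT1 and ARHGAP6 had a peak in 4 of 4 against 0 of 4 libraries, 9.09% of the members against 7.77% of all genes. No gene passed when adjusted over the 6640 genes with a peak (Fisher's exact test, smallest adjusted p = 0.122). Those 3 members passed when adjusted over the 1737 genes whose peaks were in exactly 4 of 8 libraries (Fisher's exact test, adjusted p = 0.032). So did every gene at 4 against 0, 1552 in all. The comparison shares its empty-vector libraries with the one above. The count was 3 without the empty-vector replicate of conflicting labels. Without HA-GATA2 replicate 1 it was 5, with F2R and ITGB3 added, and with lists of equal length 0. ARHGAP6 no longer stood at 4 against 0 with depth equalised or with -log10 q of at least 15, and ANGPT1 no longer did with windows of 50 kb on either side, where CD9 and PEAR1 did. RAB27B did under each of these 3 settings. At single sites 7 of the 26 member sites (26.9%) stood at 4 against 0, beside 23.8% of all sites. Of the further megakaryocyte genes, TLN1, CAVIN2 and FYB1 were among those that stood at 4 of 4 against 0 of 4.

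HA-T354M against the same empty-vector libraries asked this of the mutant. No member had a peak in 4 of 4 against 0 of 4 libraries in either direction, beside 1.06% of all genes in favour of HA-T354M and 0.00501% in favour of the empty vector. Of 10 members with a peak in either group, 5 had one in more HA-T354M libraries, 3 in more empty-vector libraries and 2 in as many. Among all 4917 genes with a peak in either group these numbers were 3332, 349 and 1236. The largest difference among the members was at ARHGAP6, with 3 of 4 against 0 of 4, and without HA-T354M replicate 2 it stood at 3 of 3 against 0 of 4. These HA-T354M peaks lay at 3 different sites, so no single ARHGAP6 site had a peak in more than 1 HA-T354M library. No gene passed the adjustment (Fisher's exact test, smallest adjusted p = 0.663), and the count of members was 0 without the empty-vector replicate of conflicting labels as well.

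In the direct comparison of the mutant with the unmutated protein, with anti-GATA2, 1 member had a peak in more HA-T354M libraries, 12 in more HA-GATA2 libraries and 2 in as many. Among all 7056 genes with a peak in either group these numbers were 673, 4366 and 2017. ANGPT1 stood at 0 of 4 HA-T354M against 4 of 4 HA-GATA2 libraries, which is 3.03% of the members against 2.93% of all genes. It passed only when adjusted over the 904 genes whose peaks were in exactly 4 of 8 libraries (Fisher's exact test, adjusted p = 0.0441, against a smallest adjusted p of 0.344 over all genes). So did every gene at 0 against 4, 586 in all. Without HA-GATA2 replicate 1, F2R and ITGB3 also stood at 4 of 4 against none, for a count of 3, and with lists of equal length the count was 0. With windows of 50 kb the count was 1, but the gene was CD9 and no longer ANGPT1. At single sites 3 of 28 member sites (10.7%), 2 of them at ANGPT1 and 1 in RAB27B, stood at 0 against 4, beside 10.2% of all sites. The estimated depth was 0.452, 0.587, 0.459 and 0.42 in HA-T354M replicates 1 to 4 and 0.427, 0.433, 0.432 and 0.434 in HA-GATA2 replicates. ANGPT1 still stood at 0 against 4 with depth equalised or with -log10 q of at least 15. The part of depth in the site counts was not tested. MYH9 and TBXAS1 had a peak in 4 of 4 libraries of both groups. Among the further megakaryocyte genes, CAVIN2 and FYB1 stood at 0 of 4 against 4 of 4.

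**Figure D4:**
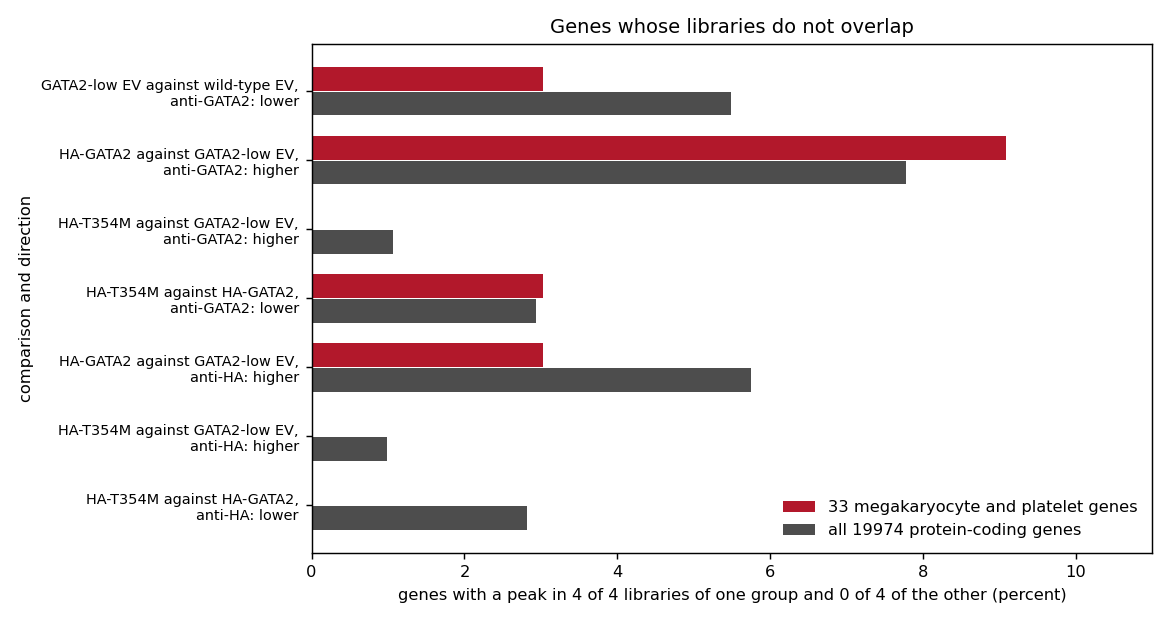
Percent of the 33 megakaryocyte and platelet genes (red) and of all 19974 protein-coding genes (grey) with a peak in 4 of 4 libraries of one group and 0 of 4 of the other, for each comparison in the direction named. The shares of the members are 3.03%, 9.09%, 0%, 3.03%, 3.03%, 0% and 0% from top to bottom, where 3.03% is 1 gene.

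With anti-HA, 7 members had a peak in at least 1 HA-GATA2 library and none in any empty-vector library. They were MYH9 in 4 libraries, ARHGAP6, LTBP1, SLFN14 and TBXAS1 in 3, and ANGPT1 and RAB27B in 2. Of all 19974 genes, 4002 had a peak in at least 1 HA-GATA2 anti-HA library. Among the members MYH9 alone stood at 4 of 4 against 0 of 4, 3.03% of the members against 5.75% of all genes (Fisher's exact test, adjusted p = 0.0996 over all genes with a peak and 0.0286 over those with a peak in exactly 4 of 8 libraries). Of the 1150 genes with a peak in exactly 4 of 8 libraries, 1148 passed. HA-GATA2 anti-HA replicate 4 had a peak at 1 member and the other 3 replicates at 6 or 7, and without replicate 4 the count was 5, with ARHGAP6, LTBP1, SLFN14 and TBXAS1 added. Each of these 7 genes also had a peak in all 4 HA-GATA2 anti-GATA2 libraries, as did TUBB1, which had no anti-HA peak. Of the further megakaryocyte genes, 8 of 40 stood at 4 of 4 against 0 of 4, among them RUNX1, GFI1B, NFE2, GATA1, LCP2 and CD36.

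The mutant was found by anti-HA at 2 members, TBXAS1 in 2 of 4 libraries and MYH9 in 1. Over all 19974 genes it had a peak at 853. No member stood at 4 of 4 against 0 of 4 for HA-T354M against the empty vector, beside 0.981% of all genes, and ALOX12 was the only further megakaryocyte gene that did. In HA-T354M against HA-GATA2 with anti-HA, 7 of 7 members with a peak had one in fewer HA-T354M libraries, as did 3748 of all 4033 genes with a peak. No member stood at 0 of 4 against 4 of 4, beside 2.82% of all genes. Adjusted over all genes with a peak, no gene passed in either comparison (Fisher's exact test, smallest adjusted p = 0.124 and 0.205). Adjusted over the genes with a peak in exactly 4 of 8 libraries, 196 and 563 genes passed, with no member among them. Without HA-GATA2 replicate 4, ARHGAP6, LTBP1 and SLFN14 stood at 0 against all remaining libraries, and without HA-T354M replicate 4 MYH9 stood at 0 against 4. The estimated depth of the anti-HA lists was 0.374 for HA-T354M and 0.376 for HA-GATA2 while their lengths differed, and with lists of equal length MYH9 was the only member at 0 of 4 against 4 of 4.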

How the data were processed

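CUT&Tag peak lists of 28 libraries from HUDEP-2 cells, in 7 groups of 4 taken from the library titles, were analysed; the 8 IgG libraries described had no list used here. MACS2 2.2.7.1, Bowtie2 2.2.5, cutadapt 3.3, FastQC, deepTools 3.5.3 and the build hg38 are named, without roles or settings, in the submitters' processing notes. The authors deposited peaks per library as narrowPeak files (10 columns each). Fold enrichment, as deposited, is a linear ratio of summit fragments to local background, the deposited p and q values are on a -log10 scale with a lowest -log10 q of 6.00, and the deposited score column is -log10 q multiplied by 10 and cut to a whole number. Of 120964 peaks, 120509 on chromosomes 1 to 22 and X were kept.

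A gene had a peak where a summit lay in its body (RefSeq GRCh38.p14) or within 10 kb. Peaks of any library that overlapped by 1 bp or more were merged into 17277 sites. Each of 19974 genes was tested by a two-sided Fisher's exact test of how many libraries per group had a peak, with Benjamini-Hochberg adjustment over the genes with a peak in either group, or over those with a peak in exactly 4 of 8 libraries. The percentile of a peak is its rank by -log10 q within its list. All 33 members are accounted for; those with a peak in at least 3 of 4 libraries of any group were to be described with values, and the others named; a result the lists cover is not reported here. Members, lists and comparisons were chosen with earlier results of these data known, and the contrasts with wild-type at single sites and the depth alternative were added after the values were seen. Read totals are unknown; relative depth is the lowest background recovered from fold and -log10 p, matched within 0.03% for 99.8% to 100% of peaks, with the caller's scaling (0.5 to 0.706 in the HA-T354M and HA-GATA2 anti-GATA2 libraries, 1 in the other libraries with an estimate) divided out. Scripts used Python 3.11.15, pandas 2.3.3 and scipy 1.17.1 and were tested on simulated data. Alternatives were other windows, overlap in place of summits, -log10 q of at least 15, lists of equal length, equalised depth, a test within replicate numbers and leaving out each library.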

Additional observations from a re-analysis of the deposited data

Results flagged for a closer look

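Of 24 sets of 4 values examined, 4 had a library far from the other 3, where chance flags about 1 in 20 sets. HA-GATA2 anti-HA replicate 4 had a peak at 1 member gene, MYH9, against 6, 6 and 7 in replicates 1 to 3; its list was also the shortest of the group, with 1912 peaks. The other 3 concern HA-GATA2 anti-GATA2 replicate 1, which has the shortest list of its group with 7064 peaks. In that library the strongest peak at ARHGAP6 stood at percentile 7.72, against 58.8, 52.3 and 51.4 in the other replicates. MYH9 stood at percentile 98.4 there, against 99.5, 99.6 and 99.5, and SLFN14 at 59, against 81.1, 79 and 79.7. The part of list length in these values was not tested.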

How the results depend on the processing

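Of 90 counts of member genes under alternatives other than leaving out a library, 76 stayed within 1.5 times the reported count and 14 moved. For the GATA2-low empty vector against wild-type, the 1 member at 0 against 4 libraries became 3 with windows of 50 kb (GP1BA, PEAR1 and RAB27B) and 0 with -log10 q of at least 15, with lists of equal length or with depth equalised. For HA-GATA2 against the empty vector with anti-GATA2 the 3 members became 0 with lists of equal length, and for HA-T354M against HA-GATA2 with anti-GATA2 the 1 member became 0. Counts within 1.5 times hid lost calls in both comparisons: with windows of 50 kb ANGPT1 was lost from each, and with depth equalised or -log10 q of at least 15 ARHGAP6 was lost from the first, leaving 2. With anti-HA, windows of 50 kb gave 5 members for HA-GATA2 against the empty vector and 3 for HA-T354M against HA-GATA2, where -log10 q of at least 15 and lists of equal length each gave 1 (MYH9). Adjusting over the genes with exactly 4 occupied libraries of 8 gave calls for 1, 3, 0 and 1 members in the 4 anti-GATA2 comparisons as ordered in the text, and for 1, 0 and 0 with anti-HA, against 0 when adjusted over all genes with a peak. Among all genes the same adjustment gave 1097, 1552, 0 and 586 calls, and 1148, 196 and 563 with anti-HA. Equalised depth moved none of the other counts it was run on by more than 1.5 times. The causes were not tested.

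Leaving out 1 library at a time moved 8 of 112 counts. The ranges were 1 to 2 lower members for the GATA2-low empty vector against wild-type, 3 to 5 higher for HA-GATA2 and 0 to 1 higher for HA-T354M against the empty vector, and 1 to 3 lower for HA-T354M against HA-GATA2. With anti-HA they were 1 to 5 higher for HA-GATA2 against the empty vector and 0 to 3 lower for HA-T354M against HA-GATA2. In the other 8 comparisons and directions the count was 0 throughout. Of 68 mean numbers of member genes per library under alternatives, 55 moved by less than 1 SD.

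No pairing by replicate number was detected: in the 5 comparisons checked, deviations of same-numbered libraries correlated at -0.09 to 0.10, and of 4 libraries at most 2 correlated best with their own number. This cannot show whether same-numbered libraries were prepared together, which the labels do not say. With the replicate block, as an exact test within same-numbered libraries whose smallest p is 0.125, 0 members passed in any of the 7 comparisons, which that limit alone would give. Presence or absence of a peak depends on list length, so an absent peak is not an absent protein. Depth is an estimate, and no read totals, IgG lists or genome sequence were analysed here.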
